A study of Mus musculus with 2 samples.

Results

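The genes *Pou5f1*, *Sox2*, *Nanog*, *Dppa3*, *Dppa4*, *Dppa5a*, *Utf1*, *Tfap2c* and *Prdm14* are 9 of the 32285 genes counted in nuclei of the fetal mouse testis. They were chosen by symbol, as genes known from pluripotent stem cells and early germ cells, and each symbol matched 1 row. Testes of mouse embryos at E14.5 (embryonic day) were profiled by 10x multiome, in which the RNA of a nucleus is sequenced together with its open chromatin, found by ATAC as DNA that a transposase could cut. The parents carried the transgene B6D2-Tg(Nr5a1-cre)2Klp or a *Rosa-tdTomato* reporter, and all nuclei come from this cross. The study gives the genotype of the embryos as *Nr5a1-cre* with *Rosa-tdTomato*. The *Nr5a1* promoter is active in somatic cells of the gonad, and no other genotype or stage was compared. There was 1 RNA library and 1 ATAC library, which share all 9833 barcodes, and neither the labels nor the methods used here give the number of embryos. With no replicate, no test between animals was possible, and every interval is an exact 95% interval that covers counting error only.

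Of the 7198 nuclei kept, 973 (13.5%) formed 1 cluster with the germ cell markers *Ddx4*, *Dazl* and *Mael*, and these are called germ-like nuclei. A UMI (1 counted RNA molecule) of *Dazl* was found in 99.0% of them, of *Ddx4* in 98.6% and of *Mael* in 78.9%. In the other 6225 nuclei these shares were 6.73%, 4.98% and 1.37%, so RNA of germ cell markers was also counted outside the germ-like cluster. Germ-like nuclei held a median of 15521 UMIs and other nuclei 7343. Levels are given as CPM, the UMIs of a gene for every 1000000 UMIs of a class. CPM is not corrected for gene length, so levels are compared between classes and not between genes.

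Pluripotent cells are held in their state by a network of transcription factors with *Pou5f1* (OCT4), *Sox2* and *Nanog* at its core. Primordial germ cells express many of the same genes, together with the germ line specifiers *Prdm14* and *Tfap2c*. In the fetal testis, germ cells then leave this program, stop dividing and take on a male fate, and loss of this control is linked to germ cell tumours.

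At E14.5, 8 of the 9 genes were at least 2-fold higher in germ-like than in other nuclei, beside 20.3% of 19399 genes. The ratios of the 8 ran from 3.52 for *Dppa3* to 59.5 for *Dppa4*. The exception was *Dppa5a*, whose RNA was 1.45-fold (1.28 to 1.64) higher in germ-like nuclei. Its promoter, in contrast, held 16.3-fold (10.0 to 27.6) more cuts in germ-like nuclei for equal totals. Within the germ-like cluster, a group of 340 nuclei held more RNA than a group of 556 nuclei for each gene but *Dppa4*, by 1.74-fold (*Pou5f1*) to 4.28-fold (*Prdm14*).

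Because chromatin at their starts is described below, the 250 bases before the RefSeq start (GRCm38.p6, the build of the files) are shown for *Pou5f1*, *Sox2*, *Nanog* and *Utf1*, the 4 genes found in the promoter table. No entry was found for *Dppa3*, *Dppa4*, *Dppa5a*, *Tfap2c* or *Prdm14*. Capitals mark every match to 5 short motifs on either strand: the octamer core ATGCAAA, the Sox core CATTGT, the GC box GGGCGG, the nuclear receptor core AGGTCA and the CCAAT box CCAAT. The regions, all on the plus strand, are chr17:35505782-35506031 (Pou5f1), chr3:34649745-34649994 (Sox2), chr6:122707239-122707488 (Nanog), chr7:139943606-139943855 (Utf1).
Pou5f1: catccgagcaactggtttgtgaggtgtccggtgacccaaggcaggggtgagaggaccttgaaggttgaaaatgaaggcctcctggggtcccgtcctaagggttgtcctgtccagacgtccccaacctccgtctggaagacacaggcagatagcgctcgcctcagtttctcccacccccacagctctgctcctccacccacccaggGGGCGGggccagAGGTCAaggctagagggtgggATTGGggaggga
Sox2: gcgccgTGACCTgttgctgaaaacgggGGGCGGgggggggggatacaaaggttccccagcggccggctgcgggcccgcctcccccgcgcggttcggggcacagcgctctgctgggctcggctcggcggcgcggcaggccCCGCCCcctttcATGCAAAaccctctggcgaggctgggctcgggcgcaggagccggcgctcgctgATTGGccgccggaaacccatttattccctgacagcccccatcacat
Nanog: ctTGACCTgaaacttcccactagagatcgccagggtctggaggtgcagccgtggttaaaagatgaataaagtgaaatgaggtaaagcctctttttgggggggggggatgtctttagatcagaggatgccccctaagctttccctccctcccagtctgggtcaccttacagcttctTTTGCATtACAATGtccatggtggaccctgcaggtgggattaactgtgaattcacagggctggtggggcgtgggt
Utf1: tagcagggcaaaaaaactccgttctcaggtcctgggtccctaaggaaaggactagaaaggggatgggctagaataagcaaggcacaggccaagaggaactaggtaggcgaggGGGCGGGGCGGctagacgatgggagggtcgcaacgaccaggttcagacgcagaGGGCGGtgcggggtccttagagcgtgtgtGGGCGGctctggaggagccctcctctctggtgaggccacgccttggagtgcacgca
Positions are counted back from the RefSeq start, the base before it being -1. In the *Nanog* promoter the reverse complement of the octamer core began at -75 and that of the Sox core at -67, with 1 base between them. The *Sox2* promoter held the octamer core at -99, and *Pou5f1* and *Utf1* held no octamer or Sox core in this window. *Utf1* held 4 GC boxes, of which the pair that begins at -138 and -133 shares a base, and *Pou5f1* held 1 GC box, 1 receptor core and 1 CCAAT box. Over 32851 RefSeq promoters of the same length, 4.12% held the octamer core, 10.7% the Sox core, 32.7% the GC box, 14.02% the receptor core and 33.8% the CCAAT box. A match describes letters and does not show binding. The ratio of observed to expected CpG was 0.833 for *Sox2*, 0.638 for *Utf1*, 0.334 for *Pou5f1* and 0.182 for *Nanog*, above 83.5%, 68.7%, 46.1% and 27.1% of promoters.

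The core transcription factors differed in how far their RNA was confined. *Pou5f1* was counted at 23.5 CPM (21.5 to 25.7) on 482 UMIs in germ-like nuclei and at 5.75 CPM (5.14 to 6.41) on 325 UMIs in other nuclei, a ratio of 4.09 (3.54 to 4.72). It was detected in all 11 other clusters, from 3.50 CPM in mesonephric mesenchyme-like nuclei to 14.6 CPM in erythroid-like nuclei, the latter on 6 UMIs (5.36 to 31.8) and overlapping the germ-like value. The cluster next below was the large unnamed interstitial cluster 0 (2542 nuclei) at 6.78 CPM (5.58 to 8.17), which lay below the germ-like interval. Erythroid-like nuclei (46) were also highest outside the germ-like cluster for *Ddx4* (43.8 CPM), *Dazl* (94.8 CPM) and *Mael* (17.0 CPM), and the part of germ cell RNA in the values of this cluster was not tested. *Sox2* was at 23.6 CPM (21.5 to 25.8) in germ-like nuclei and 0.814 CPM (0.596 to 1.09) in other nuclei, a ratio of 28.9 (21.4 to 40.1). *Nanog* was at 6.24 CPM (5.21 to 7.42) against 0.301 CPM (0.175 to 0.482), a ratio of 20.7 (12.5 to 36.7), on 128 and 17 UMIs. *Nanog* was at 0 in 5 of the 11 other clusters and *Sox2* in 2. A count of 0 allows up to 3 UMIs (a one-sided limit), which is 0.302 CPM in Sertoli-like and 4.39 CPM in immune-like nuclei, and the upper ends of the exact intervals used elsewhere are 0.371 and 5.40 CPM. *Sox2* lies inside the longer noncoding gene *Sox2ot* on the same strand, which was counted at 49.5 CPM and 1.96 CPM (ratio 25.2), and how reads of the 2 genes were divided was not tested. *Pou5f1* overlaps the antisense gene *Gm19553*, which had 2 UMIs in germ-like and 3 in other nuclei.

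The germ line specifiers were low, but far higher in the germ-like cluster than in all other nuclei together. *Prdm14*, a chromatin regulator needed to form primordial germ cells, was at 8.68 CPM (7.45 to 10.1) against 0.195 CPM (0.0972 to 0.348), a ratio of 44.6 (24.3 to 90.9) resting on 11 UMIs in other nuclei. It was 122 at the automatic doublet threshold and 93.6 as the ratio of mean CPM over nuclei, where *Dppa4* was at 105 and 92.5, so the order of these genes is not fixed. *Tfap2c*, encoding AP-2 gamma, was at 5.12 CPM (4.19 to 6.20) against 0.319 CPM (0.189 to 0.504), a ratio of 16.1 (9.69 to 28.2). Each was at 0 in 4 of the 11 other clusters, and the highest values outside the germ-like cluster, 2.43 CPM for *Prdm14* and 1.46 CPM for *Tfap2c*, were 1 UMI each. The intervals of these values, 0.0616 to 13.6 CPM in erythroid-like and 0.0371 to 8.15 CPM in immune-like nuclei, reach the germ-like levels. Small clusters are thus not set apart from germ-like nuclei. *Utf1*, a chromatin-bound factor of pluripotent cells, was at 14.05 CPM (12.5 to 15.8) against 2.05 CPM (1.70 to 2.46), a ratio of 6.84 (5.50 to 8.56). It was detected in 10 of the 11 other clusters, with 2.81 CPM (2.06 to 3.75) in cluster 0 and 4.86 CPM on 2 UMIs in erythroid-like nuclei.

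The 3 developmental pluripotency associated genes gave 3 different patterns. *Dppa4*, encoding a nuclear DNA-binding protein, was at 152 CPM (146 to 157) in germ-like and 2.55 CPM (2.15 to 3.001) in other nuclei, a ratio of 59.5 (50.4 to 70.9). Outside the germ-like cluster it was highest in erythroid-like nuclei at 12.2 CPM (3.95 to 28.4), followed by endothelial-like nuclei at 9.65 CPM (6.05 to 14.6), whose intervals overlap. These values rest on 5 UMIs in 2 nuclei and on 22 UMIs in 10 nuclei. The 2 clusters also held 18 and 80 UMIs of *Ddx4*, and the part of germ cell RNA in their *Dppa4* values was not tested. *Dppa3* (Stella), which protects maternal DNA methylation in the zygote, was at 25.6 CPM (23.4 to 27.8) against 7.26 CPM (6.57 to 7.995), a ratio of 3.52 (3.09 to 4.02), and was detected in all 11 other clusters from 2.91 to 9.73 CPM. *Dppa5a* was at 19.7 CPM (17.8 to 21.7) against 13.6 CPM (12.6 to 14.6). In cluster 0 it reached 18.2 CPM (16.2 to 20.4) on 298 UMIs, which overlaps the germ-like interval, and it was lowest in endothelial-like nuclei at 7.02 CPM (4.01 to 11.4). Sertoli-like nuclei were at 9.85 CPM (7.997 to 12.005) and Leydig-like nuclei at 12.4 CPM (10.2 to 14.96), whose intervals overlap. GENCODE vM21 holds *Dppa5b* and *Dppa5c*, pseudogenes near *Dppa5a*, which have no row in the table, so reads that they share with it could not be divided.

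**Figure D1:**
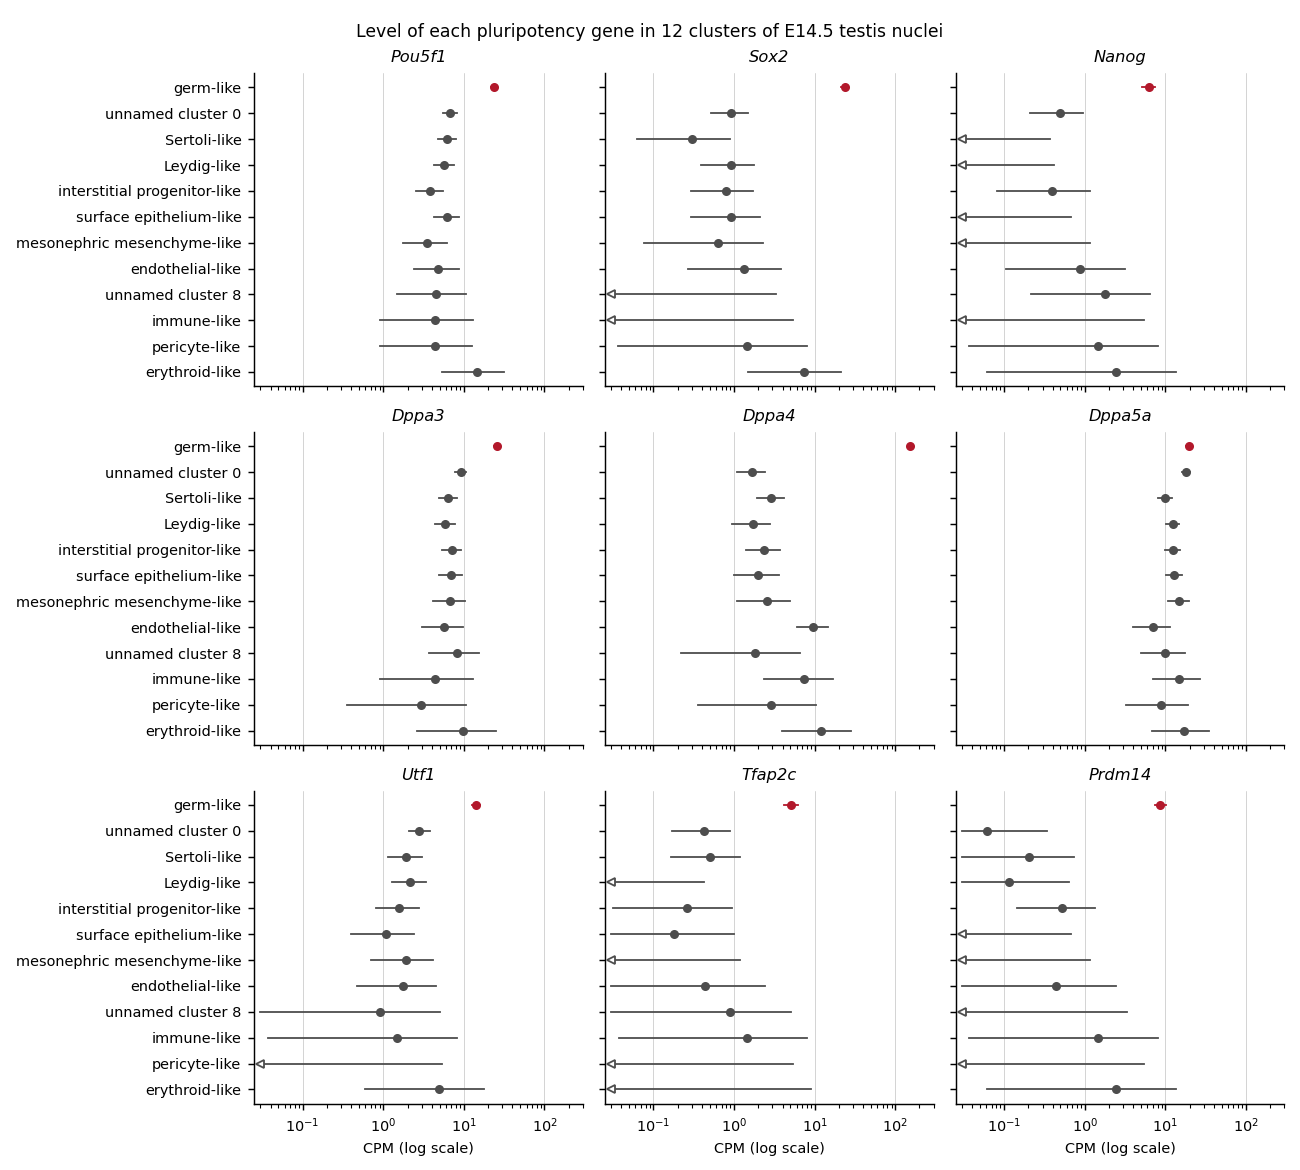
CPM of each pluripotency gene (log axis) in the germ-like cluster (red) and the 11 other clusters (grey), with exact Poisson intervals; open triangles mark clusters with 0 UMIs, and bars that reach the left edge go on below it. *Dppa5a* in cluster 0 (18.2 CPM) lies beside the germ-like value (19.7 CPM), while *Dppa4* is at 152 CPM in germ-like nuclei and at 12.2 CPM or below elsewhere.

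The count of 8 of 9 genes at a ratio of at least 2 stands beside 20.3% of the 19399 genes with at least 20 UMIs in both classes together. Clusters were made with the RNA of these nuclei, with the 9 genes left out, and these ratios describe the cluster and are no test of it. When clusters were made from ATAC alone, 888 nuclei were germ-like, and 8 of 9 genes again had a ratio of at least 2, beside 21.7% of genes. The ratios were then 4.09 for *Pou5f1*, 14.2 for *Sox2*, 14.4 for *Nanog*, 4.01 for *Dppa3*, 21.2 for *Dppa4*, 1.66 for *Dppa5a*, 6.16 for *Utf1*, 12.6 for *Tfap2c* and 19.3 for *Prdm14*. The ratios of *Sox2*, *Dppa4* and *Prdm14* were lower by more than 1.5 times under this change. Nuclei with a UMI of all 3 germ cell markers (773) against nuclei with a UMI of none (5479) gave 1.21 (1.05 to 1.38) for *Dppa5a*.

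Outside the germ-like cluster, the 9 genes did not follow the germ cell markers alike. In germ-like nuclei 11.2 UMIs of *Dppa4* were counted per 100 UMIs of *Ddx4*, *Dazl* and *Mael* together, and in other nuclei 10.6, an odds ratio of 0.946 (0.788 to 1.13) an interval that held 1 in each of the 11 other clusters as well. For *Prdm14* the odds ratio was 1.26 (0.618 to 2.32), and the interval held 1 in 10 of the 11 other clusters. The exception was interstitial progenitor-like nuclei, at 5.08 (1.35 to 13.6) on 4 UMIs. *Sox2*, *Nanog* and *Tfap2c* were higher relative to the markers in other nuclei, with odds ratios of 1.95 (1.40 to 2.65), 2.72 (1.53 to 4.54) and 3.50 (1.99 to 5.83), but within single clusters the interval held 1 in 8, 8 and 9 of 11. *Utf1* was at 8.23 (6.53 to 10.3), *Pou5f1* at 13.8 (11.8 to 16.1), *Dppa3* at 16.0 (13.9 to 18.4) and *Dppa5a* at 38.8 (33.9 to 44.4). For *Dppa5a* the interval lay above 1 in 11 of 11 clusters, for *Pou5f1* in 10, for *Dppa3* in 8 and for *Utf1* in 6. The same 3 markers named the germ-like cluster, so these odds ratios are a description and no test.

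**Figure D2:**
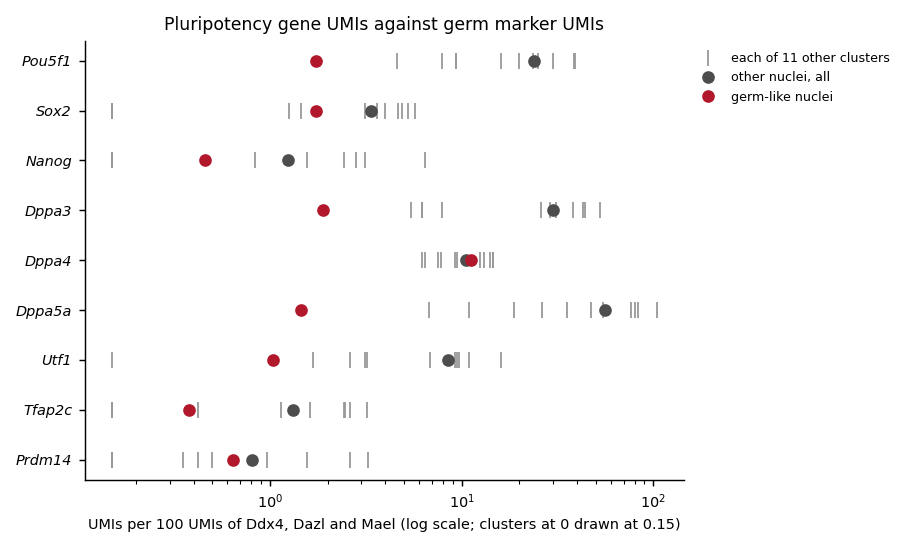
UMIs of each pluripotency gene per 100 UMIs of *Ddx4*, *Dazl* and *Mael* (log axis) in germ-like nuclei (red), all other nuclei (dark grey) and each of the 11 other clusters (ticks; clusters at 0 are drawn at 0.15). The red and grey points coincide for *Dppa4* (11.2 and 10.6) and lie farthest apart for *Dppa5a* (1.45 and 56.3).

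The level of some genes outside the germ-like cluster also differed between nuclei of unequal depth. In the deepest tertile of other nuclei (median 12010 UMIs) *Dppa5a* was at 10.3 CPM (9.19 to 11.5) and in the shallowest tertile (median 4861 UMIs) at 17.7 CPM (15.2 to 20.6). *Dppa3* was at 11.6 CPM (9.58 to 14.02) in the shallowest and 5.76 CPM (4.95 to 6.66) in the deepest tertile, and *Pou5f1* was at 5.98 CPM (4.53 to 7.75) and 5.31 CPM (4.54 to 6.18), with overlapping intervals. *Ddx4* went the other way, from 5.66 CPM (4.25 to 7.39) to 12.1 CPM (10.9 to 13.4). Among other nuclei, the 681 above the automatic doublet threshold of Scrublet held 4.65 CPM (3.58 to 5.94) of *Dppa4* and the remaining 5544 held 1.87 CPM (1.48 to 2.33), while *Dppa5a* was at 10.7 CPM (9.03 to 12.6) and 14.48 CPM (13.4 to 15.7). Depth also differed between clusters. Cluster 0 had a median of 5883 UMIs and 18.2 CPM of *Dppa5a*, and Sertoli-like nuclei 9852 UMIs and 9.85 CPM. The part of the mix of clusters, of free RNA and of mixed droplets in these levels was not tested.

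Detection per nucleus was sparse for all but 1 gene. At full depth a UMI of *Dppa4* was found in 87.2% of germ-like nuclei, of *Dppa3* in 37.4%, of *Pou5f1* in 34.6%, of *Sox2* in 33.1%, of *Dppa5a* in 29.8%, of *Utf1* in 24.9%, of *Prdm14* in 13.5%, of *Nanog* in 10.1% and of *Tfap2c* in 8.63%. Because germ-like nuclei were deeper, each nucleus was also thinned to 2000 UMIs, as the mean over all thinnings, which left out 2 germ-like nuclei. *Dppa4* was then found in 29.6% (26.8 to 32.6) of germ-like and 0.407% (0.263 to 0.599) of other nuclei. *Pou5f1* was found in 5.28% (3.94 to 6.85) against 1.17% (0.917 to 1.47), and *Sox2* in 5.44% (4.12 to 7.08) against 0.161% (0.0780 to 0.299). *Dppa5a* was found in 4.74% (3.49 to 6.27) of germ-like and 3.03% (2.62 to 3.50) of other nuclei, so that these intervals met. *Ddx4* and *Dazl*, which somatic nuclei should lack, were found in 1.32% and 1.83% of other nuclei at this depth. More UMIs of these markers were counted in germ-like nuclei (9222 and 14897) than of the 9 genes (105 to 3112 each), so no order between genes is read from these shares.

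Most germ-like nuclei with RNA of a gene had few molecules of it. *Pou5f1* was at 0 UMIs in 636 nuclei, at 1 in 239 and at 4 or more in 11, with a maximum of 5. *Dppa4* was at 0 in 125 nuclei and at 4 or more in 366, with a maximum of 40. *Dppa5a* reached 12 UMIs in 1 nucleus and *Dppa3* 9. The variance over nuclei relative to that of Poisson counts at each nucleus's depth was 1.39 for *Pou5f1*, 1.51 for *Utf1*, 1.55 for *Dppa5a*, 1.59 for *Sox2*, 1.62 for *Nanog*, 1.66 for *Dppa3*, 1.70 for *Prdm14*, 2.10 for *Tfap2c* and 2.45 for *Dppa4*. Over 10470 genes with 100 to 4000 UMIs in these nuclei the median was 1.32 and the quartiles were 1.16 and 1.60, so *Dppa3*, *Nanog*, *Prdm14*, *Tfap2c* and *Dppa4* lay above the upper quartile. The genes compared were not matched for level. *Dppa4* had a mean of 3.20 UMIs per nucleus, and the others from 0.108 (*Tfap2c*) to 0.539 (*Dppa3*), so no order between genes is read from these values.

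The share of germ-like nuclei with at least 2 of the 9 genes was close to that expected of independent genes. Over all germ-like nuclei most single pairs lay slightly above expectation. At 2000 UMIs, 10.9% (8.93 to 12.9) of germ-like nuclei held at least 2 of the 9 genes, and 10.3% would be expected if the genes were detected independently. At 5000 UMIs these shares were 35.7% (32.7 to 38.8) and 36.2%, with 18 nuclei left out. Both ends of the distribution were fuller than expected at this depth. None of the genes was found in 219 nuclei where 198 were expected, and at least 3 in 106 where 92.1 were expected. Exactly 2 genes were found in 235 nuclei with 254 expected, so the share with at least 2 does not show this spread. Of 36 pairs at 5000 UMIs, 33 were found together more often than expected. Of the 22 pairs with an expected count of at least 5 nuclei, 20 were above it, and observed over expected ran from 0.737 to 1.46 with a median of 1.12. Pairs share genes and are not independent. Within the group of 340 nuclei described next, 17 of the 36 pairs were above expectation. Of its 22 pairs with at least 5 nuclei expected 13 were above, with a median of 1.03. Within the group of 556 nuclei these counts were 29 of 36 and 11 of 12, with a median of 1.07 over the 12. *Sox2* with *Prdm14* was at the upper end, with 8.48 nuclei observed and 5.80 expected, and *Pou5f1* with *Utf1* at the lower end, with 7.13 observed and 9.68 expected. *Pou5f1* with *Sox2*, whose proteins bind DNA as partners, was found in 17.0 nuclei with 14.8 expected.

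At a finer clustering (resolution 0.6) the same 973 nuclei fell into 3 groups, called A (556 nuclei), B (340) and C (77). The 9 genes were left out of the RNA part of the clustering. Other RNA counts of the same nuclei were used, so the values are a description. Each gene except *Dppa4* was higher in B than in A. B was also shallower, with a median of 12745 UMIs against 16168 in A. Among all germ-like nuclei each of the 9 genes had a higher CPM in those below the median depth, with ratios of high over low depth from 0.432 to 0.702. Group C, described below, was part of this split. The part of depth in the difference between B and A was not tested. *Prdm14* was at 21.4 CPM (17.5 to 26.0) in B and 5.002 CPM (3.76 to 6.53) in A, and *Tfap2c* at 13.3 CPM (10.2 to 17.0) and 3.15 CPM (2.18 to 4.40), ratios of 4.28 and 4.22. *Nanog* was at 13.1 CPM and 4.82 CPM (ratio 2.72) and *Utf1* at 25.8 CPM and 11.6 CPM (ratio 2.23). *Dppa5a*, *Dppa3*, *Sox2* and *Pou5f1* followed with ratios of 1.97, 1.94, 1.83 and 1.74. *Dppa4* was at 176 CPM (165 to 188) in B and 177 CPM (169 to 185) in A, a ratio of 0.997 (0.918 to 1.08). Thus 4 of 9 genes were at least 2-fold higher in B, beside 5.09% of 15327 genes, of which 13% were at least 2-fold lower in B. Among the germ cell markers, *Dazl* was 1.36-fold and *Ddx4* 1.13-fold higher in B, and *Mael*, a gene of the piRNA pathway, was lower, at 101 CPM against 258 CPM.

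Group C stood apart in depth, with a median of 33807 UMIs. All of its nuclei (100%) lay above the automatic doublet threshold, against 21.0% in A and 10.0% in B, and UMIs of 48 somatic marker genes made up 2206 CPM of C against 1040 CPM of A and 947 CPM of B. All 9 genes were lower in C than in B, with *Dppa4* at 72.7 CPM and *Pou5f1* at 15.3 CPM, and *Ddx4* was lower as well, at 211 CPM. Without group C, 8 of 9 genes still had a ratio of at least 2 between germ-like and other nuclei.

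**Figure D3:**
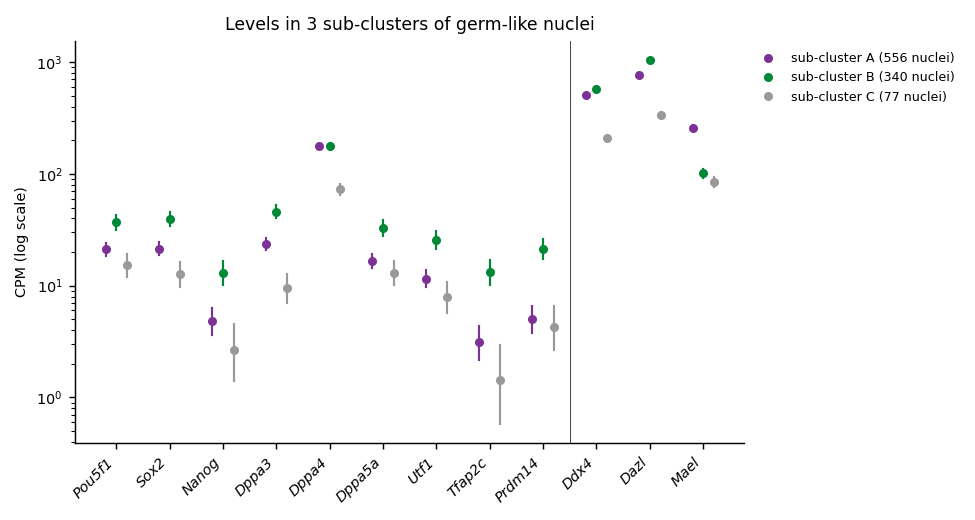
CPM (log axis) of the 9 pluripotency genes and of *Ddx4*, *Dazl* and *Mael* in groups A, B and C of germ-like nuclei, with exact Poisson intervals. Points of B lie above those of A for 8 of the 9 genes and coincide with A for *Dppa4*, and *Mael* is lower in B (101 CPM) than in A (258 CPM).

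Splits of germ-like nuclei by gene lists that hold none of the 9 genes gave related orders. Germ-like nuclei above the median share of 97 cell cycle genes (S and G2M lists of Seurat; 486 nuclei) held more *Prdm14* (ratio 2.26, 1.62 to 3.20), *Nanog* (1.93, 1.32 to 2.87), *Tfap2c* (1.60, 1.06 to 2.45), *Sox2* (1.49, 1.24 to 1.80) and *Dppa5a* (1.36, 1.11 to 1.67) than the 487 below it. For *Pou5f1* (0.972, 0.809 to 1.17), *Dppa4* (0.941, 0.877 to 1.01), *Dppa3* (1.16, 0.975 to 1.39) and *Utf1* (1.22, 0.960 to 1.55) the interval held 1. The share is continuous, and 356 nuclei lay within 10% of its median. Germ-like nuclei above the median share of 7 male fate genes held less *Prdm14* (0.388, 0.266 to 0.556), *Tfap2c* (0.419, 0.256 to 0.663), *Nanog* (0.631, 0.424 to 0.925) and *Dppa5a* (0.703, 0.568 to 0.866) and more *Dppa4* (1.47, 1.37 to 1.58). Over the 10 alternatives the ratio ran from 0.206 to 0.571 for *Prdm14*, from 0.256 to 0.598 for *Tfap2c*, from 0.455 to 0.886 for *Nanog* and from 0.493 to 0.829 for *Dppa5a*. With the gate on the 3 germ cell markers the interval held 1 for *Nanog* (0.579 to 1.33), *Tfap2c* (0.323 to 1.06) and *Dppa5a* (0.648 to 1.05), and with no doublet removal it held 1 for *Nanog* (0.506 to 1.02). The interval held 1 for *Pou5f1* (0.902), *Sox2* (0.869), *Dppa3* (0.954) and *Utf1* (0.890). When nuclei above the automatic doublet threshold were left out, these became 0.652, 0.565, 0.604 and 0.633, and *Dppa4* became 1.05. Other alternatives moved them the other way, with the gate on the 3 germ cell markers giving 1.05 for *Pou5f1*, 1.21 for *Dppa3* and 1.62 for *Dppa4*, and no doublet removal giving 1.04 for *Sox2*.

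The promoters of most of the genes were more open in germ-like nuclei. Of the 9 genes, 6 had an ATAC peak within 1 kb of the start, and for 5 of these the cuts in such peaks were at least 2-fold higher in germ-like nuclei relative to all cuts in peaks, beside 10.9% of 19295 genes with a promoter peak. With clusters made from RNA alone, which did not use the cuts, the count was also 5 of 6, beside 10.8%. Germ-like nuclei had 4659031 cuts in peaks on 7752108 fragments, and other nuclei 22328318 on 30489117. Ratios relative to cuts in peaks are therefore higher than ratios relative to all fragments, for all genes alike. The interval of the *Sox2* peaks (1.95 to 2.82) held 2, so the count of 5 may hang on this choice of total. Cuts mostly come in pairs from 1 fragment, so intervals on cuts are too narrow, and ratios in fragments are given beside them for the peaks of the 6 genes.

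*Pou5f1* had 1 peak (chr17:35505621-35506479) over its start, with 60 cuts in germ-like and 26 in other nuclei, a ratio of 11.1 (6.87 to 18.3) in cuts and 9.83 (5.26 to 19.1) in fragments. *Nanog* had 1 peak (chr6:122706946-122708047) with 63 and 32 cuts, a ratio of 9.44 (6.07 to 14.9), or 8.97 (4.83 to 17.2) in fragments. *Dppa5a* had 1 peak (chr9:78367752-78368663) with 75 and 22 cuts, a ratio of 16.3, or 14.3 (7.47 to 29.2) in fragments. This peak held 0 cuts in 7 of the 11 other clusters, and was highest outside the germ-like cluster in Sertoli-like nuclei at 1.69 for every 1000000 cuts of the cluster, on 5 cuts. Germ-like nuclei were at 16.1 (12.7 to 20.2) on this scale. The upper end for 0 cuts was 1.60 in Leydig-like nuclei, but 19.1 in immune-like and 21.7 in erythroid-like nuclei. In these small clusters the limit thus reaches the germ-like level. Among germ cell markers the promoter ratio was 18.1 for *Ddx4*, 23.7 for *Mael* and 1.57 for *Dazl*. The *Dazl* peak lies 305 to 1168 bases inside the gene, and cuts within 500 bp of the *Dazl* start gave 8.27 (6.54 to 10.5). The interval of the *Dppa5a* promoter overlapped those of *Ddx4* (13.4 to 24.7) and *Mael* (16.5 to 34.9), while its RNA ratio was 1.45 against 48.0 for *Ddx4*.

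*Utf1*, *Sox2* and *Tfap2c* had promoters that were also cut in other nuclei. *Utf1* had 1 peak (chr7:139943571-139944334) with 103 and 129 cuts, a ratio of 3.83 (2.92 to 4.997), or 4.04 (2.82 to 5.76) in fragments. *Sox2* had a peak before the start (chr3:34649422-34650303) with 135 and 240 cuts and a ratio of 2.70 (2.17 to 3.34), which holds the RefSeq promoter shown above, and a peak in the gene (chr3:34650725-34651552) with a ratio of 1.63 (1.10 to 2.36). *Tfap2c* had a peak over its start (chr2:172549049-172549816) with 48 and 189 cuts and a ratio of 1.22 (0.868 to 1.68), and a peak 756 to 1527 bases further in (chr2:172550349-172551120) with a ratio of 2.93 (2.20 to 3.89). Together the *Tfap2c* peaks gave 1.93 (1.56 to 2.37), or 1.87 (1.40 to 2.48) in fragments, and the *Sox2* peaks gave 2.35 (1.95 to 2.82), or 2.26 (1.75 to 2.90) in fragments. In other nuclei the promoter peaks of *Sox2* and *Tfap2c* held 15.9 and 14.47 of every 1000000 cuts, the peak of *Utf1* 5.78 and the peaks of *Pou5f1*, *Nanog* and *Dppa5a* 1.16, 1.43 and 0.985.

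*Dppa3*, *Dppa4* and *Prdm14* had no peak within 1 kb of the start. Peaks were called by the authors over all nuclei together, of which the germ-like nuclei are 13.5%. Cuts were therefore also counted within 500 bp of each start from the fragments, whether or not a peak was called, an alternative chosen after the data were seen and given in cuts alone, with intervals that are too narrow. *Dppa3* then had 105 cuts in germ-like and 23 in other nuclei, a ratio of 18.0 (11.4 to 29.6) per fragment of the class, and *Dppa4* had 27 and 15, a ratio of 7.08 (3.63 to 14.3). *Prdm14* had 43 and 95 cuts, a ratio of 1.78 (1.21 to 2.58). *Dppa3* also had a peak farther upstream (chr6:122624244-122625096), from -2166 to -1314 relative to the start, with 97 and 11 cuts and a ratio of 42.3 (22.6 to 87.5), or 41.3 (17.7 to 118) in fragments. *Prdm14* had a peak inside the gene, 1238 to 2161 bases after the start (chr1:13125002-13125925), with a ratio of 1.84 (1.14 to 2.88), or 1.86 (0.974 to 3.39) in fragments. In this window the ratio of *Tfap2c* was 0.969 (0.701 to 1.32). The window leaves out the *Tfap2c* peak further in, and the ratio is relative to all fragments of a class and not to its cuts in peaks, so both choices differ from the ratio of 1.93. For *Sox2* the ratio was 1.55 (1.19 to 2.01), in a window around the start of the table. The RefSeq start of *Sox2* lies at -410 relative to that start, so the window leaves out part of the peak before the start. The ratio of that peak was 2.70, relative to cuts in peaks and not to fragments, so here too both choices differ.

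**Figure D4:**
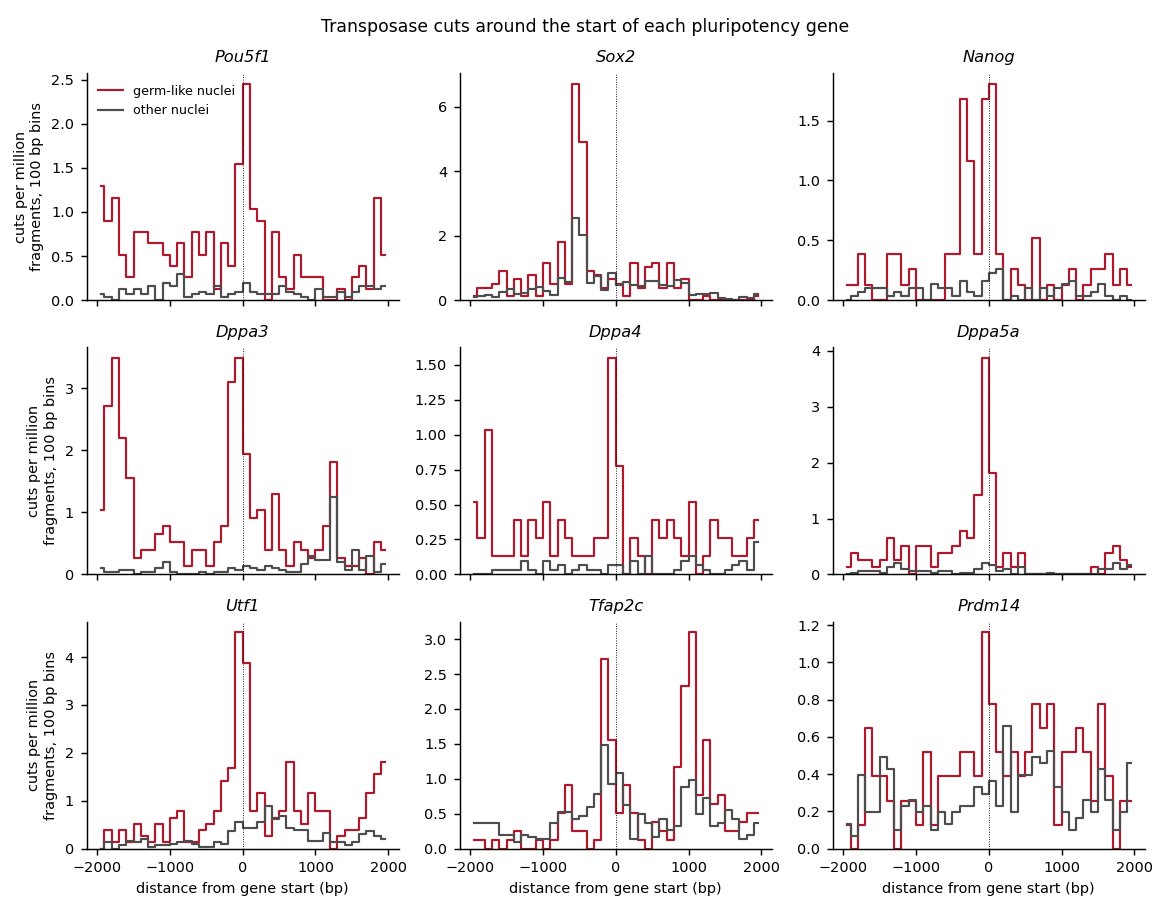
Cuts for every 1000000 fragments of the class in 100 bp bins around the start of each gene, in the direction of the gene, for germ-like (red) and other nuclei (grey); the vertical scale differs between panels. Germ-like nuclei show a maximum at the start of *Pou5f1*, *Dppa3*, *Dppa4*, *Dppa5a* and *Utf1* where other nuclei are close to 0 or low, and both classes share the maximum of *Sox2*. For *Tfap2c* the highest bin is centred at 1050 bp in germ-like and at -150 bp in other nuclei.

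RNA and promoter ratios did not rank the genes alike. *Dppa3*, *Pou5f1* and *Dppa5a* had RNA ratios of 3.52, 4.09 and 1.45 beside ratios around the start of 18.0, 9.09 and 12.3. *Tfap2c*, *Prdm14* and *Sox2* had RNA ratios of 16.1, 44.6 and 28.9 beside 0.969, 1.78 and 1.55. In peaks within 1 kb, as planned, *Tfap2c* was at 1.93 and *Sox2* at 2.35, and this window, chosen after the data were seen, gave the lowest promoter ratio of all alternatives for both. *Dppa4* and *Nanog* were high in both, with RNA ratios of 59.5 and 20.7 beside 7.08 and 7.997, and *Utf1* was at 6.84 and 3.81. Both measures come from the same nuclei and classes, and with 9 genes no correlation was computed.

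**Figure D5:**
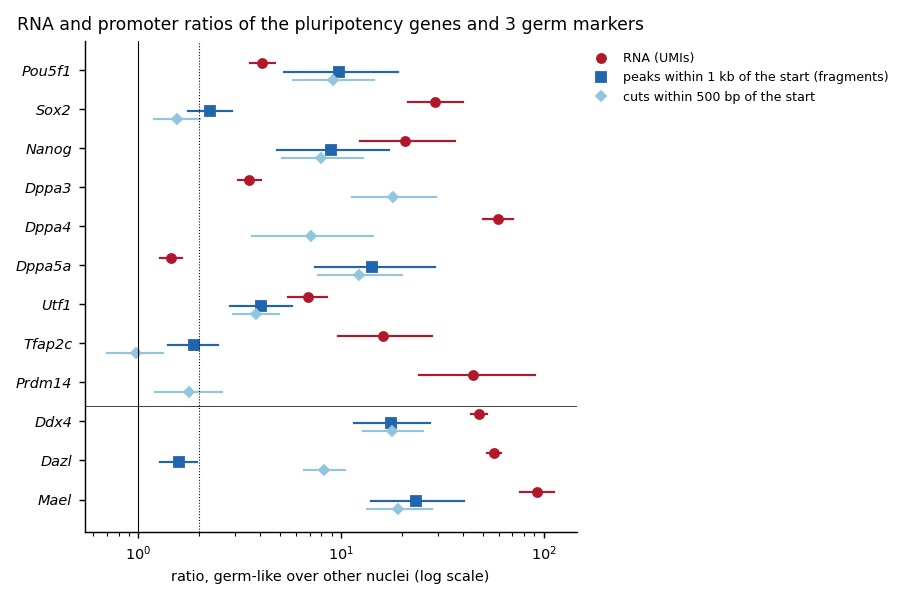
Ratio of germ-like to other nuclei (log axis) for RNA (red), fragments in peaks within 1 kb of the start (blue) and cuts within 500 bp of the start (light blue), with exact intervals; lines mark ratios of 1 and 2. For *Dppa5a*, *Dppa3* and *Pou5f1* the red point lies to the left of the light blue one, and for the other 6 genes to the right.

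Other genes of the same programs, from lists chosen with earlier results of these data known, were largely higher in germ-like nuclei, again beside 20.3% of genes with a ratio of at least 2 and a median ratio of 1.04 over all genes tested. Of 15 core network genes with at least 20 UMIs, 10 were at least 2-fold higher and 1 at least 2-fold lower, with a median ratio of 9.18. *Nr5a2* (44.98), a nuclear receptor, and *Zfp42* (39.7), encoding REX1, had the largest ratios, and *Tbx3* (0.280) the smallest. All 4 RNA regulators were higher (median 18.8), led by *Trim71* (32.1) and *Lin28b* (21.0), with *L1td1* (9.52) the smallest. Of 5 Nodal pathway genes 4 were higher (median 6.79), among them *Nodal* (17.4) itself, while *Lefty2*, a Nodal inhibitor, was at 1.21 (0.998 to 1.46).

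Of 8 primordial germ cell genes, 4 were at least 2-fold higher and the median ratio was 2.01. *Dppa2* (29.3), the partner of *Dppa4*, and *Prdm1* (21.8), encoding BLIMP1, led, and *Kit*, the receptor for stem cell factor, was at 0.570 (0.520 to 0.624) with 27.9 CPM in germ-like and 48.9 CPM in other nuclei. All 7 male fate genes were higher (median 33.1), led by *Tdrd9* (134) and *Morc1* (104), with *Mov10l1* (21.8) the smallest. Of 10 meiosis genes 9 were higher (median 15.01), led by *Sycp1* (85.4) and *Spo11* (69.8), while *Dmc1* was at 1.04 (0.963 to 1.12). The median ratio of the 9 pluripotency genes was 16.1.

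The genes whose levels over the 12 clusters were most like those of 8 of the 9 genes were found by Pearson's r of log2(CPM + 1) among 15207 genes with at least 100 UMIs. The points share 1 library and the germ-like cluster is 1 of 12 points, so r is a description. The nearest were *Gm49357* for *Dppa4* (r = 0.992), *Ina* for *Prdm14* (0.987), *Spata5* for *Pou5f1* (0.969), *Mageb4* for *Sox2* (0.967), *Trap1a* for *Dppa3* (0.965), *Gm13110* for *Nanog* (0.959) and *Ndufaf5* for *Utf1* (0.940). For *Dppa5a* the nearest was *Rpl35a*, a ribosomal protein gene, at r = 0.862, with 150 CPM in germ-like and 144 CPM in other nuclei.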

How the data were processed

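The authors made the files with Cell Ranger ARC 2.0.1 on mm10, per the labels, and deposited raw counts: UMIs for each gene, cuts for each peak (1 set of peaks for all barcodes) and a list of fragments. No normalization was applied by the authors to these counts. The table held 122049390 UMIs and 38243814 cuts in 9833 barcodes. The filters were taken from the study (over 500 genes, under 10% mitochondrial, 10% ribosomal protein and 0.5% haemoglobin UMIs, 250 to 25000 fragments at peaks and over 20% of fragments there) and left 7668. The study's filter on fragments at blacklist regions was not applied here, so classes can differ from those of the study. Scrublet (scanpy 1.11.5) scores stood in for the study's doublet caller, and 470 nuclei (6.13%) were removed by rank. The study also corrected its counts for ambient (free) RNA with DecontX, and no ambient RNA was removed here. Levels outside the germ-like cluster can therefore differ from those of the study. Clusters came from Seurat 5.3.0 in R 4.3.3 (weighted nearest neighbours of RNA and ATAC, resolution 0.3), with the 9 genes left out of the RNA part. A cluster took the class with the highest marker score. It stayed unnamed where its 10 leading genes held more markers of another class than of that one. UMIs were summed per class, with exact Poisson intervals for CPM and exact conditional intervals for ratios. A comparison of RNA or promoters needed at least 20 counts over both classes. Thinning, ratios and co-detection were tested on simulated data. For co-detection the simulated levels of the 9 genes were about 10 times those of the data, and the check of ratios left out genes with few counts. Genes named beyond the 9 were the 2 largest and the smallest ratio of each list and the nearest gene over clusters, apart from a few results that are not reported here. The genes, lists and rules were chosen with earlier results of these data known. Alternatives were other doublet and depth thresholds, clusters from 1 assay, a gate on the germ cell markers, resolution 0.6, mean CPM per nucleus, thinning to 5000 UMIs, fragments and promoter windows of 500 bp and 2 kb; those without group C, without nuclei above the doublet threshold and around the start without peaks were chosen after seeing the data.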

Additional observations from a re-analysis of the deposited data

How the results depend on the processing

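No paired analysis was possible because there is 1 library per assay. Of 498 values recomputed under 16 alternatives, 417 stayed within the counting interval of the main value or, for counts of genes, within 1.5 times. A further 80 moved beyond it and 1, the promoter ratio of *Tfap2c*, was counted as reversed. Some ratios whose main interval held 1 also crossed 1 and were not counted as reversed. An example is the male fate ratio of *Pou5f1*, at 0.902 and up to 1.05. The count of genes at least 2-fold higher was 8 in all 11 of its alternatives, and that of promoters 5 or 6 in the 14 of its own, out of 6 to 9 genes. The share of germ-like nuclei with at least 2 genes was 10.9% at 2000 and 35.7% at 5000 UMIs, since more UMIs were kept. The promoter ratio of *Tfap2c* went from 1.93 to 0.969 around the start without peaks, where the total is also fragments and not cuts in peaks. RNA ratios ran from 14.2 (clusters from ATAC alone) to 47.5 (automatic doublet threshold) for *Sox2*, from 21.2 (ATAC alone) to 107 (nuclei above the doublet threshold left out) for *Dppa4*, and from 19.3 (ATAC alone) to 122 (automatic threshold) for *Prdm14*; the cause was not tested. The ratio of *Dppa5a* stayed between 1.21 and 1.68. With no minimum of UMIs, 23.2% of genes in place of 20.3% were at least 2-fold higher. Few cuts at single promoters and 11 to 18 UMIs of *Prdm14*, *Nanog* and *Tfap2c* in other nuclei limit these ratios.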

Other observations

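Beside the pluripotency genes, the gene lists also differed between groups A and B of germ-like nuclei, given here as counts of genes with at least 20 UMIs in both groups together and with no test, since the clustering used these genes. Over all 15327 such genes the median ratio of B over A was 1.02, with 7975 higher in B (780, or 5.09%, at least 2-fold) and 7352 lower (1994, or 13%, at least 2-fold). All 5 Nodal pathway genes were higher in B, 4 of them at least 2-fold (median ratio 5.96), and all 8 primordial germ cell genes were higher, 3 of them at least 2-fold (median 1.45). Of 13 core network genes 11 were higher, 6 of them at least 2-fold, and 1 was at least 2-fold lower (median 1.68). Of 7 male fate genes 6 were lower in B, 4 of them at least 2-fold (median 0.357). Of 10 meiosis genes 5 were higher and 5 lower (median 0.945), although their summed level was lower in B, at 2157 against 3261 CPM. Of 4 RNA regulators 3 were higher (median 1.74), although their summed level was 579 CPM in B and 670 CPM in A. The proliferation genes *Mki67* and *Top2a*, named after their values were seen, were at 366 and 326 CPM in B and at 80.9 and 78.9 CPM in A.

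In CPM, germ-like nuclei below the median depth held more of all 9 genes than those above it, with ratios of high over low depth from 0.432 (*Dppa3*) to 0.702 (*Sox2*). *Ddx4* (0.659) and *Dazl* (0.602) differed in the same direction, and *Mael* (0.906) less. Group C (77 nuclei, median 33807 UMIs), in which all 9 genes were lower than in B, was not set apart in this split. Its part in these ratios was not tested.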
